A study of Mus musculus with 24 samples.

Results

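The 10 genes described here are those of glucose uptake, glycolysis and lactate release together with Fbp1, the gene for the opposing enzyme fructose-1,6-bisphosphatase. They are Slc2a1, Hk2, Hk3, Pfkp, Pfkfb3, Aldoa, Pgk1, Ldha, Slc16a3 and Fbp1, picked by symbol from the 12767 genes of the deposited table, and all 10 were listed and passed the filter on low values. All are protein-coding genes, and the coordinates given with each are those of GENCODE M21 on GRCm38, the assembly also called mm10. The libraries are bulk RNA-seq of CD11c+ cells taken with magnetic beads from the mesenteric lymph nodes (MLN) of mice that carried MC38 tumours, a mouse colon carcinoma line, under the skin. All mice were C57BL/6, aged 6 to 8 weeks at tumour injection and labelled female, and they were either wild type (WT) or Myd88 knockout (KO). They received control IgG, anti-PD-1 antibody, oral live LGG (Lactobacillus rhamnosus GG), or LGG with anti-PD-1. Doses were given 2 times a week for 2 to 3 weeks, starting when tumours averaged 100 mm3, 7 to 10 days after injection. Each antibody dose was 200 ug per mouse, and the labels name no antibody for the groups given LGG alone. Each of the 8 groups had 3 libraries, and the labels do not say whether a library came from 1 mouse or from several, so the p-values measure the spread between libraries, which may be technical. In bulk RNA, fewer cells of a type and less RNA per cell cannot be told apart, and this holds for every value below.

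Glycolysis turns glucose into pyruvate in the cytosol. Hexokinases trap glucose as glucose-6-phosphate, phosphofructokinase commits the sugar to breakdown, and lactate dehydrogenase converts pyruvate to lactate, which leaves the cell through monocarboxylate transporters. Fructose-1,6-bisphosphatase runs the phosphofructokinase step backwards and belongs to gluconeogenesis. The metabolite fructose-2,6-bisphosphate activates the first enzyme and inhibits the second, and enzymes of the PFKFB family make and break it. Dendritic cells are known to raise glycolysis after signals through Toll-like receptors, most of which use the adaptor Myd88.

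Facts of the whole series bear on the values that follow. Reads in listed genes ran from 24531528 to 49272593 per library. Myd88, the targeted gene, had 1723 to 2232 normalised counts in the 12 WT libraries and 697 to 1837 in the 12 KO libraries. KO stood below WT on the log2 scale both under IgG, at -0.58 ± 0.19, and under LGG, at -1.34 ± 0.19 (limma, adjusted p = 0.0185 and 4.37e-06). The Y-linked gene Ddx3y had 1241 to 2136 normalised counts in the KO libraries and 0 to 4.50 in the WT libraries, against the label female, so the sex of the mice and the genotype cannot be told apart here. The markers of conventional dendritic cells were present (Itgax and H2-Ab1 led the list), but Cd209a was not listed. Markers of macrophages, natural killer cells and T cells were present too. Gzma led the natural killer markers, of which Ncr1 was not listed. In 3 KO libraries the median gene lay 0.412 to 0.521 on the log2 scale from the mean of its group's other libraries. These were replicates 2 and 3 of the anti-PD-1 group and replicate 2 of the LGG group. In KO LGG replicate 3 that distance was 0.311, measured against a mean that includes replicate 2. In the remaining libraries it was 0.0679 to 0.184. Counts of called genes, gene family shares and changed calls that rest on KO libraries are therefore also given without the 3. Only replicate 1 of the KO anti-PD-1 group then remains, itself measured against replicates 2 and 3. Counts without the 3 are therefore not given for comparisons with that group.

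The starts of these genes are shown because most of the 10 carry the short sequence ACGTG, the core that hypoxia-inducible factors (HIF) bind, and because HIF target genes are counted further on. RefSeq (GRCm38.p6) gave 14 windows for the 10 genes, each from 250 bases before to 50 after a transcription start. ACGTG, searched on both strands, was in 10 of these 14 windows (71.4%), belonging to 8 of the 10 genes, and in 19.6% of all 32851 windows. Among the 9178 windows with at least 60% G and C before the start, the kind to which 10 of the 14 belong, the share was 26.6%. The Aldoa windows with ACGTG overlap and hold the same site, which is thus counted more than once. These shares are per window, and no share per gene is available to set beside the 8 of 10. The second core, GCGTG, was in 5 of the 14 windows (35.7%), in 32.4% of all windows and in 59.2% of the GC-rich ones. The E-box CACGTG, which contains ACGTG, was in 2 of the 14 windows and 7.15% of all. The stretches below end at the start site, or just before the first annotated exon base, and cover at most 160 bases, read 5′ to 3′ on the gene's strand, with ACGTG and GCGTG of either strand in capitals. They show the 2 genes that rose most with LGG in WT (Pfkfb3, at the inner of its 2 starts, and Slc16a3), a gene with many cores (Ldha), the hexokinase gene that fell (Hk3), and Fbp1.
Pfkfb3, chr2:11502102-11502250, minus strand: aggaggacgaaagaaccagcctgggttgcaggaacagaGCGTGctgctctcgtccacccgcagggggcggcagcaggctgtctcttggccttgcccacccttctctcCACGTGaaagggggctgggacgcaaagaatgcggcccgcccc
Slc16a3, chr11:120948907-120949052, plus strand: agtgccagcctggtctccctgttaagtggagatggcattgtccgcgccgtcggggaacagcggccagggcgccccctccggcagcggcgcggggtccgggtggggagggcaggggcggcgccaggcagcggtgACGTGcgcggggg
Ldha, chr7:46845644-46845803, plus strand: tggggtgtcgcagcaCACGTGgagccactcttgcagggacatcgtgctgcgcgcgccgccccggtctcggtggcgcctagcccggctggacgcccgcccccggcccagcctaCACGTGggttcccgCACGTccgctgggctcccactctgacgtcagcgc
Hk3, chr13:55021386-55021545, minus strand: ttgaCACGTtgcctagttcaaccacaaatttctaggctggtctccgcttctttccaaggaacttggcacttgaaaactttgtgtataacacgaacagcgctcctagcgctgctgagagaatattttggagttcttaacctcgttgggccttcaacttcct
Fbp1, chr13:62888283-62888442, minus strand: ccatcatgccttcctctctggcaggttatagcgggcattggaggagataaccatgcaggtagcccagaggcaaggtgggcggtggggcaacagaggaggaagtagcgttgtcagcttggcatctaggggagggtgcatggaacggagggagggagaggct
Pfkfb3 and Ldha had a full CACGTG in the printed stretch, Slc16a3 and Hk3 had 1 core each, and Fbp1 had neither core in its window. A match is a run of letters and was not tested as a binding site.

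In WT libraries LGG was followed by higher Pfkfb3, Slc16a3, Slc2a1, Pgk1 and Ldha and by lower Hk3, Pfkp and Fbp1. The span was wide, from 4.42-fold higher for Pfkfb3 to about 130-fold lower for Fbp1, while the other called genes moved by less than 3-fold. The comparison of LGG with IgG asks which steps of the pathway differ when the bacterium is given to mice that have Myd88. Of the 10 genes, 5 rose, 3 fell and 2 (Hk2 and Aldoa) were not called at an adjusted p under 0.05 (limma on log2 of the normalised count plus 1). Over all 12749 genes tested, 27.4% rose and 28.2% fell, so most genes of the table were called as well. The median log2 difference of the 10 was 0.36, beside 0.00 over all genes.

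In KO libraries LGG was followed by higher Slc2a1, Hk3, Pfkp and Slc16a3 and by lower Fbp1. Here 4 of the 10 genes rose, 1 fell and 5 were not called, against 18.1% and 14.2% of all genes. The median was 0.33 beside 0.00 over all genes. With the 3 libraries that stand apart left out, 8 rose and 1 fell, Aldoa being the exception, against 32.1% and 29.4% of all genes. The 5 genes called with all libraries kept their direction and call without the 3, with log2 differences of 0.61 for Slc2a1, 0.41 for Hk3, 0.32 for Pfkp, 0.62 for Slc16a3 and -1.985 for Fbp1. The other 4 were Hk2, Pfkfb3, Pgk1 and Ldha.

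**Figure D1:**
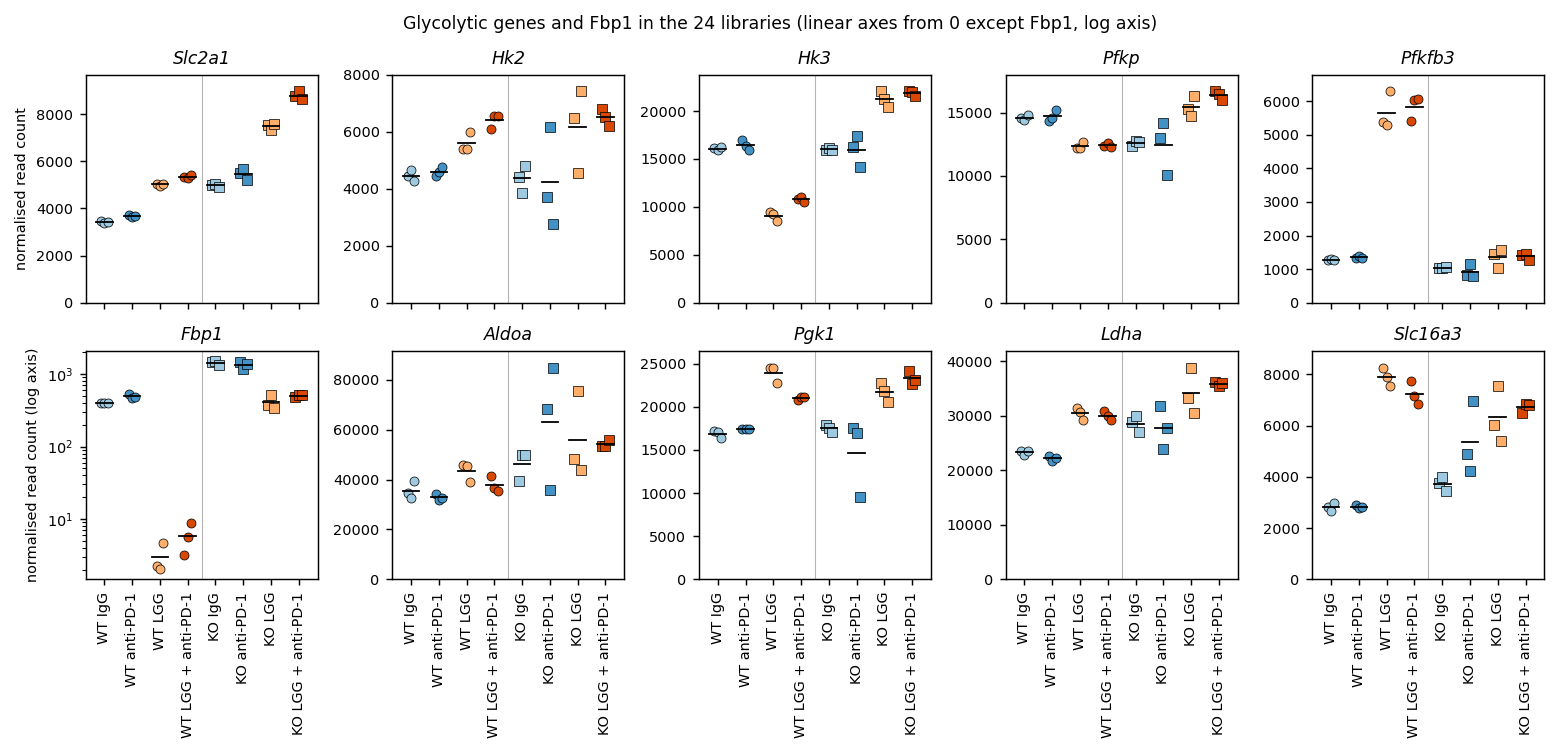
Normalised read counts of the 10 genes in each of the 24 libraries, with 1 point per library and a bar at the mean of 3; circles are WT, squares are KO, the axes are linear from 0 except for Fbp1, whose axis is logarithmic. Pfkfb3 stood at 1256 to 1296 in WT IgG libraries and at 5282 or more in every WT library given LGG, where Fbp1 was under 10.

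Slc2a1 (chromosome 4, 119108711 to 119137983, plus strand) encodes GLUT1, the main glucose carrier of activated immune cells. Its normalised counts were 3465, 3397 and 3440 in WT IgG libraries and 5059, 4971 and 5041 in WT LGG libraries. In KO they were 4981, 5054 and 4901 with IgG and 7541, 7347 and 7604 with LGG. Every LGG library lay above every IgG library of its genotype, and the KO IgG values sat near the WT LGG values. On the log2 scale the difference was 0.55 ± 0.05 in WT and 0.59 ± 0.05 in KO (adjusted p = 7.24e-09 and 1.15e-08, limma), and these did not differ beyond error (0.04 ± 0.07, 95% interval -0.10 to 0.18). Slc2a1 had the smallest standard errors of the 10. KO exceeded WT by 0.54 ± 0.05 under IgG and by 0.58 ± 0.05 under LGG (adjusted p = 2.96e-08 and 3.52e-09, limma). Ordered by mean, the groups ran from KO LGG with anti-PD-1 at 8797 ± 168 (SD, n = 3) down to WT IgG at 3434 ± 34.3 (SD, n = 3). The libraries overlapped at only 2 neighbouring steps of that order, KO anti-PD-1 with WT LGG plus anti-PD-1, and WT LGG with KO IgG.

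Slc2a1 was not the most abundant carrier of its family in these cells. On the scale of normalised counts per kilobase of transcript, Slc2a6, a carrier found in lysosomes, made up 66.7% ± 1.2 (SD, n = 3) of 5 listed glucose carriers in WT IgG and Slc2a1 22.7% ± 0.98 (SD, n = 3). With LGG in WT these shares were 72.2% ± 1.1 and 22.0% ± 0.88 (SD, n = 3). Slc2a6 itself rose in both genotypes, by 0.71 ± 0.16 in WT and 1.28 ± 0.16 in KO on the log2 scale (adjusted p = 0.00073 and 3e-06, limma). In KO, where both carriers rose, the share of Slc2a1 was 35.7% ± 1.5 with IgG and 27.2% ± 3.7 with LGG (SD, n = 3), or 29.3% without LGG replicate 2.

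Hk2 (chromosome 6, 82725025 to 82774454, minus strand) and Hk3 (chromosome 13, 55005985 to 55021385, minus strand) encode hexokinases, Hk2 being the form that binds mitochondria and is induced in growing cells, and Hk3 the form typical of myeloid cells. Hk3 had 16104, 15890 and 16208 normalised counts in WT IgG libraries and 9455, 9200 and 8535 in WT LGG libraries. In KO it had 15967, 16132 and 15897 with IgG and 22046, 21306 and 20444 with LGG. The IgG libraries of both genotypes shared 1 narrow range, and the LGG libraries left it in opposite directions with no overlap. The log2 difference was -0.83 ± 0.07 in WT and 0.41 ± 0.07 in KO (adjusted p = 4.23e-09 and 1.25e-04, limma), and the difference between genotypes was 1.24 ± 0.10 (adjusted p = 7.61e-09, limma).

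Hk2 had 4464, 4654 and 4265 normalised counts in WT IgG libraries and 5405, 5405 and 5982 in WT LGG libraries. In KO the values were 4424, 3866 and 4795 with IgG and 6484, 4561 and 7421 with LGG. The WT libraries were apart and the KO libraries overlapped through LGG replicate 2. Neither difference was called when all libraries shared 1 estimate of the spread, with 0.33 ± 0.20 in WT and 0.47 ± 0.20 in KO (adjusted p = 0.17 and 0.0744, limma). Without the 3 libraries that stand apart Hk2 was called in both, with 0.67 and an adjusted p = 2.74e-07 (limma) in KO.

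The make-up of the hexokinases moved with these changes. Per kilobase, Hk3 made up 70.8% ± 0.66 (SD, n = 3) of the 3 listed hexokinases in WT IgG and 56.3% ± 2.2 (SD, n = 3) in WT LGG, while Hk2 went from 11.5% ± 0.51 to 20.3% ± 1.5 (SD, n = 3). Hk1, the housekeeping form, went from 17.7% ± 0.29 to 23.4% ± 0.77 (SD, n = 3), although its own level was not called (-0.09 ± 0.11, adjusted p = 0.51, limma). In KO the share of Hk3 was 74.9% ± 1.0 with IgG and 75.2% ± 3.1 with LGG (SD, n = 3), or 73.7% without LGG replicate 2.

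**Figure D2:**
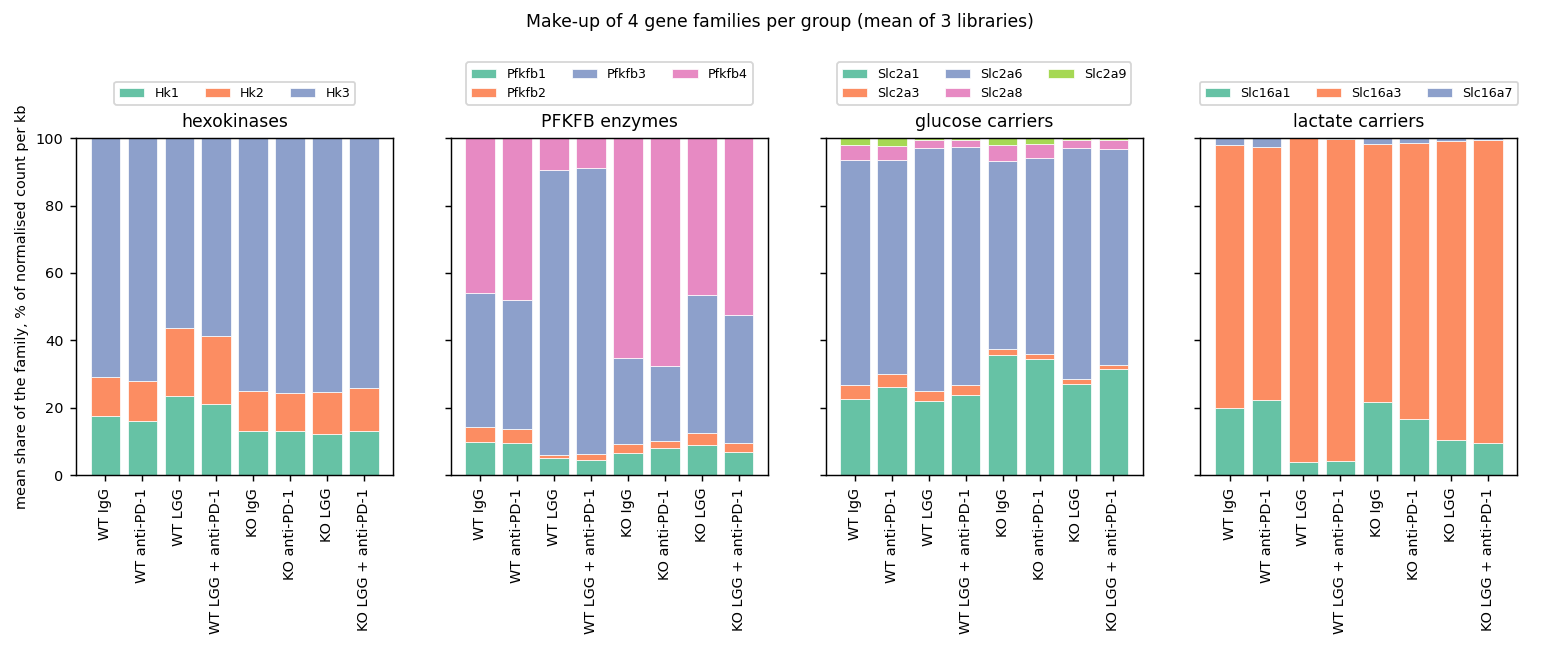
Mean share of each gene within 4 families, in percent of the family's normalised count per kilobase, for the 8 groups (3 libraries each, stacked to 100%). In WT libraries with LGG the PFKFB bar was mostly Pfkfb3 (84.5%) and the lactate carrier bar mostly Slc16a3 (95.9%).

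Pfkp (chromosome 13, 6579768 to 6648777, minus strand) encodes the platelet form of phosphofructokinase, the committing step. It had 14594, 14431 and 14782 normalised counts in WT IgG libraries and 12183, 12196 and 12656 in WT LGG libraries. In KO it had 12399, 12767 and 12692 with IgG and 15314, 14768 and 16278 with LGG. Within each genotype the treated and IgG libraries did not overlap, and the directions were opposite. LGG minus IgG on the log2 scale was -0.24 ± 0.09 in WT and 0.29 ± 0.09 in KO (adjusted p = 0.0243 and 0.0146, limma), and the difference between genotypes was 0.53 ± 0.12 (adjusted p = 0.0021, limma). The WT call was lost when WT IgG replicate 1 or 3 or WT LGG replicate 1 or 2 was left out. The KO call was lost without KO IgG replicate 1 or KO LGG replicate 3, and when only the libraries compared entered the fit. Pfkp stayed near 3 in 4 of the family's transcripts per kilobase, with 75.3% ± 0.51 in WT IgG and 72.4% ± 0.54 in WT LGG (SD, n = 3).

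Pfkfb3 (chromosome 2, 11471433 to 11554077, minus strand) encodes the PFKFB enzyme with the strongest bias towards making fructose-2,6-bisphosphate. Its normalised counts were 1283, 1296 and 1256 in WT IgG libraries and 5388, 5282 and 6296 in WT LGG libraries. In KO they were 1041, 1020 and 1068 with IgG and 1456, 1021 and 1556 with LGG. All WT LGG libraries lay more than 3-fold above every IgG library of either genotype, whereas in KO replicate 2 of the LGG group lay within the IgG range. The log2 difference was 2.14 ± 0.14 in WT (adjusted p = 6.49e-11, limma) and 0.34 ± 0.14 in KO, which was not called (adjusted p = 0.063, limma). The difference between genotypes was -1.80 ± 0.19 (adjusted p = 4.62e-07, limma). Without the 3 libraries that stand apart Pfkfb3 was called in KO at 0.53 (adjusted p = 2.87e-06, limma), and the difference between genotypes was -1.61.

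The other enzymes of fructose-2,6-bisphosphate did not rise with it. Pfkfb4 fell in both genotypes, by 1.24 ± 0.07 in WT and 0.82 ± 0.07 in KO on the log2 scale (adjusted p = 1.2e-11 and 2.5e-08, limma). In WT, Pfkfb2 (-1.15 ± 0.34) and Tigar, which breaks down the same metabolite (-0.45 ± 0.08), fell as well (adjusted p = 0.0065 and 6.2e-05, limma), and Pfkfb1 was not called (0.09 ± 0.16, adjusted p = 0.66). Per kilobase, Pfkfb3 made up 39.7% ± 0.24 of the 4 PFKFB genes in WT IgG and 84.5% ± 1.5 in WT LGG, and Pfkfb4 45.9% ± 0.088 and 9.38% ± 0.77 (SD, n = 3). In KO, Pfkfb3 made up 25.4% ± 0.73 with IgG and 40.9% ± 4.9 with LGG, and Pfkfb4 65.3% ± 0.91 and 46.7% ± 3.7 (SD, n = 3). Without LGG replicate 2 the KO shares with LGG were 43.5% and 44.9%.

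Aldoa, Pgk1 and Ldha encode aldolase A, phosphoglycerate kinase 1 and the A subunit of lactate dehydrogenase, and per kilobase all 3 stood above the 97th percentile of genes in every group. Pgk1 (chromosome X, 106187100 to 106203699, plus strand) had 17198, 17071 and 16438 normalised counts in WT IgG libraries and 24464, 24516 and 22812 in WT LGG libraries. In KO it had 17885, 17582 and 17043 with IgG and 22785, 21861 and 20602 with LGG, again with no overlap. The difference was called in WT (0.50 ± 0.15, adjusted p = 0.00653, limma) and not in KO (0.31 ± 0.15, adjusted p = 0.114, limma), and the difference between genotypes was not called either (-0.19 ± 0.21, 95% interval -0.62 to 0.24). Both were called without the 3 libraries that stand apart, the KO value at 0.31 and the difference between genotypes at -0.19 (adjusted p = 3.29e-05 and 0.0198, limma), and also with array weights.

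Ldha (chromosome 7, 46841475 to 46855627, plus strand) had 23522, 22820 and 23592 normalised counts in WT IgG libraries and 31464, 30746 and 29233 in WT LGG libraries. In KO it had 28838, 29978 and 26947 with IgG and 33232, 38777 and 30446 with LGG. The libraries of each genotype were apart, though KO LGG replicate 3 stood only just above the highest KO IgG library. LGG minus IgG on the log2 scale was 0.39 ± 0.10 in WT and 0.25 ± 0.10 in KO (adjusted p = 0.00178 and 0.0506, limma), and the genotypes did not differ beyond error (-0.14 ± 0.13, 95% interval -0.42 to 0.15). Without the 3 libraries that stand apart the KO value was 0.16 and was called, and the difference between genotypes was -0.23 and was called too (adjusted p = 0.0182 and 0.00952, limma). Ldha made up 98.0% ± 0.25 of the Ldha and Ldhb pair per kilobase in WT IgG and 99.5% ± 0.12 in WT LGG (SD, n = 3).

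Aldoa (chromosome 7, 126795234 to 126800751, minus strand) was called in no comparison when all 24 libraries entered the fit with equal weight. Its normalised counts were 34403, 32727 and 39231 in WT IgG libraries and 45942, 45259 and 39214 in WT LGG libraries, which overlapped. In KO they were 39546, 49787 and 49815 with IgG and 48136, 75644 and 43700 with LGG. The highest values in the series were in libraries that stand apart, 84781 in KO anti-PD-1 replicate 3 and 75644 in KO LGG replicate 2, while KO anti-PD-1 replicate 2 had 35739. In limma the log2 difference was 0.29 ± 0.23 in WT and 0.23 ± 0.23 in KO (adjusted p = 0.289 and 0.489, limma). When the 3 libraries were left out, the KO value was -0.01 and not called, while the WT value of 0.29 was called with an adjusted p = 0.00492 (limma), as it was with array weights and with only the libraries compared. The same 3 alternatives called Aldoa higher in KO than in WT under IgG (0.38 without the 3, adjusted p = 0.000727, limma).

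Slc16a3 (chromosome 11, 120948480 to 120960868, plus strand) encodes MCT4, the lactate exporter of highly glycolytic cells. It had 2819, 2659 and 2974 normalised counts in WT IgG libraries and 8252, 7918 and 7533 in WT LGG libraries. In KO it had 3775, 3983 and 3441 with IgG and 6022, 7555 and 5414 with LGG. Every LGG library exceeded every IgG library of its genotype, and under IgG every KO library exceeded every WT library. The log2 difference was 1.49 ± 0.13 in WT and 0.75 ± 0.13 in KO (adjusted p = 1.09e-08 and 2.06e-04, limma), and it was smaller in KO by 0.74 ± 0.19 (-0.74, adjusted p = 0.00462, limma). Slc16a1, which encodes MCT1, fell in both genotypes (-1.10 ± 0.07 and -0.52 ± 0.07, adjusted p = 6.3e-11 and 8.1e-06, limma). Of the 3 listed lactate carriers per kilobase, Slc16a3 made up 78.1% ± 1.7 in WT IgG and 95.9% ± 0.22 in WT LGG, and Slc16a1 19.9% ± 1.6 and 4.05% ± 0.20 (SD, n = 3). In KO the share of Slc16a3 was 76.5% ± 1.9 with IgG and 88.7% ± 1.8 with LGG (SD, n = 3), or 87.6% without LGG replicate 2.

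Fbp1 (chromosome 13, 62864753 to 62888282, minus strand) showed the largest difference of the 10 in every comparison of LGG with its control. Its normalised counts were 398, 396 and 404 in WT IgG libraries and 2.23, 2.06 and 4.70 in WT LGG libraries, the latter resting on 9 reads in all. In KO they were 1447, 1490 and 1352 with IgG and 380, 516 and 342 with LGG. The WT LGG libraries were at the bottom of the range, and the KO LGG libraries lay where WT IgG lay. Summed over libraries, Fbp1 was 130-fold lower with LGG in WT (95% counting interval 68.3 to 285) and 3.51-fold lower in KO (3.30 to 3.75), intervals that cover counting error only. The log2 difference was -6.71 ± 0.24 in WT and -1.81 ± 0.24 in KO (adjusted p = 1e-14 and 7.6e-06, limma), and the difference between genotypes was 4.89 ± 0.34 (adjusted p = 1.1e-09, limma). With so few reads in WT the fitted value depends on the number added before the logarithm: with 8 in place of 1 it was -5.22, and the difference between genotypes was 3.42. Per kilobase Fbp1 stood at the 55.4th percentile of genes in WT IgG and at the 1.6th in WT LGG, and at the 81.6th and 56.4th in KO.

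KO exceeded WT in Fbp1 under IgG by 1.84 ± 0.24 on the log2 scale (3.58-fold, adjusted p = 5.13e-06, limma) and under LGG by 6.73 ± 0.24 (adjusted p = 1.09e-14, limma). Marker genes of other cells moved between the same groups. The 13 listed macrophage and monocyte markers, led by Lyz2, summed to 276966 to 299007 in WT IgG libraries and 63926 to 70173 in WT LGG libraries. In KO their sum was 388108 to 433466 with IgG and 276662 to 376907 with LGG. The 7 markers of mature dendritic cells, led by Ccl22, summed to 44544 to 47089 in WT IgG and 636409 to 725340 in WT LGG, and to 18167 to 20036 and 44765 to 63019 in KO. The part of these cell types in the differences of Fbp1, Hk3 or Pfkfb3 was not tested.

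**Figure D3:**
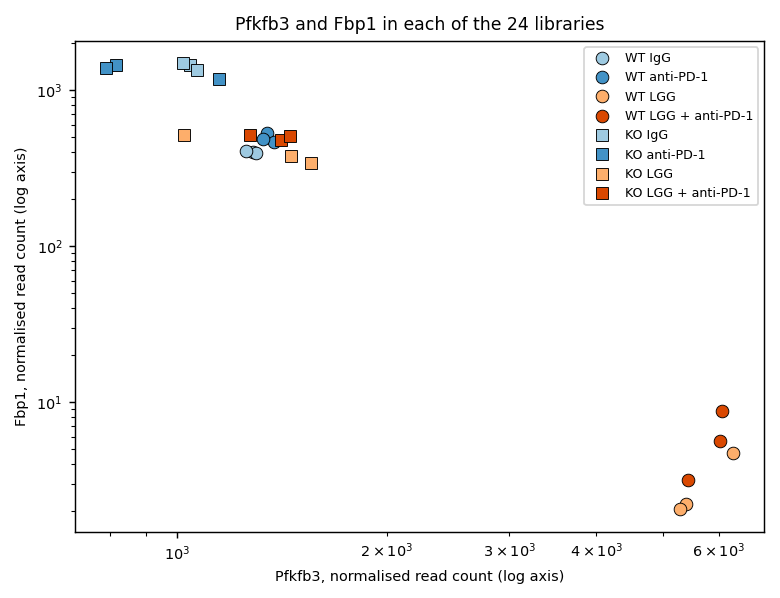
Normalised read counts of Pfkfb3 (x, log axis) and Fbp1 (y, log axis) in the 24 libraries, 1 point each; circles are WT, squares are KO, and colours are treatments. The 6 WT libraries given LGG, with 5282 to 6296 counts of Pfkfb3 and 2.06 to 8.78 of Fbp1, stood apart from the other 18, whose Fbp1 counts were 342 to 530 or, in KO without LGG, 1183 to 1490.

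In the plot of Pfkfb3 against Fbp1 the libraries fell into separate groups, so no correlation over all libraries is given. The genes whose 8 group means were most like those of each member were taken by Pearson's r over the log2 means of 12360 genes compared. They are a description, since only 8 points enter. For Pfkfb3 they were Ptgs2, Cd80 and Il12b (r = 0.996 for each), and for Fbp1 Nceh1 (0.999), Cyp20a1 (0.999) and Cd300lf (0.998). The group means of Pfkfb3 and Fbp1 fall into the same separate groups as the libraries, so these r carry the same limit. Ptgs2 encodes the inducible cyclooxygenase, Cd80 a costimulatory ligand and Il12b the p40 subunit of interleukin-12. For Hk3 they were Rbm47 (0.997), Gas2l3 (0.992) and Igf2r (0.987), and for Hk2 Tbk1 (0.990), Fndc3a (0.986) and Specc1 (0.985). Tbk1 encodes a kinase downstream of Toll-like receptors. For Slc2a1 they were Rbfox2 (0.990), Gss (0.989) and Gsto2 (0.988), and for Slc16a3 Fam71f2 (0.989), Ppp1r15a (0.984) and Grina (0.983). For Ldha they were Uchl1 (0.994), Mrgbp (0.991) and Ttc12 (0.988). The values were lower for Pfkp, with Lpcat2 (0.961), Cds2 (0.957) and Abr (0.956), and for Pgk1, with Tspan3 (0.975), Slc32a1 (0.975) and Pip4k2c (0.974). For Aldoa they were Snf8 (0.986), Tgfb1 (0.985) and Napa (0.985).

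LGG was also given on top of anti-PD-1, which repeats the question in libraries not used above. In WT, 5 of the 10 rose (27.7% of all genes) and 3 fell (29.1%). Pfkfb3 had 1344, 1376 and 1329 normalised counts with anti-PD-1 and 5415, 6030 and 6076 with both (log2 difference 2.11 ± 0.14, adjusted p = 7.36e-11, limma). Fbp1 had 530, 464 and 485 with anti-PD-1 and 3.15, 5.62 and 8.78 with both, 84.7-fold lower (95% counting interval 52.0 to 148). Slc16a3 had 2909, 2782 and 2810 and then 7734, 7171 and 6837 (1.35 ± 0.13, adjusted p = 4.01e-08, limma). Hk3 had 16945, 16346 and 15960 and then 10815, 11075 and 10482 (-0.61 ± 0.07, adjusted p = 3.36e-07, limma). In each of these 4 genes the libraries with and without LGG did not overlap. Slc2a1 (0.54 ± 0.05) and Ldha (0.43 ± 0.10) rose and Pfkp fell (-0.24 ± 0.09, adjusted p = 9.72e-09, 6.24e-04 and 0.0238, limma). The Pfkp call was lost without WT anti-PD-1 replicate 3 or without replicate 1 or 3 of the WT libraries given both. Hk2 was called here (0.48 ± 0.20, adjusted p = 0.0453, limma) but no longer with the replicate block or when any 1 of the 6 libraries was left out. Pgk1 was not called (0.27 ± 0.15, adjusted p = 0.121, limma). It was called without the 3 KO libraries that stand apart (adjusted p = 1.94e-05, limma), which enter the shared spread.

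In KO, 8 of the 10 rose when LGG was added to anti-PD-1 (19.7% of all genes), Fbp1 fell (17% of all genes fell) and Aldoa was not called. The KO anti-PD-1 group holds 2 of the libraries that stand apart, and Pgk1 shows it, with 17598, 17020 and 9488 normalised counts there and 24146, 22648 and 23166 with both agents. When only these 6 libraries entered the fit, 2 of the 10 genes were called. Over the whole table that fit called 1258 of 12363 genes, and the fit to all libraries 4673 of 12749. All 10 were called without the 3 libraries that stand apart (28.6% of all genes higher and 26.5% lower), with Aldoa lower (-0.34, adjusted p = 0.0266, limma). Slc2a1 (0.69 ± 0.05, adjusted p = 1.42e-09, limma) and Fbp1 (-1.41 ± 0.24, adjusted p = 1.27e-04, limma) were called under every alternative tried. Fbp1 had 1453, 1183 and 1394 with anti-PD-1 and 479, 510 and 519 with both, 2.67-fold lower (95% counting interval 2.51 to 2.84). Slc16a3, at 0.36 ± 0.13 (adjusted p = 0.0449, limma), had overlapping libraries, since KO anti-PD-1 replicate 3 reached 6957. Its call was lost without KO anti-PD-1 replicate 1 or 2 or any of the KO libraries given both. It was also lost with DESeq2, with the replicate block and when only the libraries compared entered the fit.

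**Figure D4:**
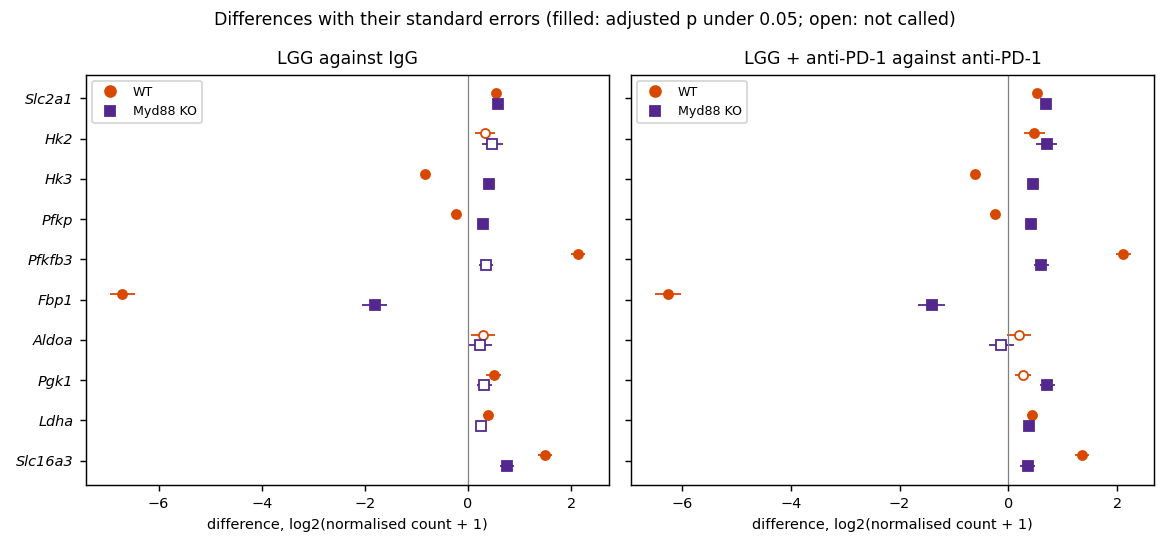
Log2 differences with LGG for the 10 genes (x axis, log2 of the normalised count plus 1), with standard errors from limma, in WT (circles) and KO (squares), against IgG on the left and on top of anti-PD-1 on the right; filled points had an adjusted p under 0.05. Hk3 and Pfkp lay on opposite sides of 0 in the 2 genotypes in both panels, and Fbp1 was lowest in each.

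Whether the response to LGG differs between the KO and WT libraries was tested directly, as the difference between KO and WT of the log2 differences. Since all KO and no WT libraries carried the Y-linked transcript, genotype and sex cannot be told apart in it. It was called for the same 5 genes against IgG and on top of anti-PD-1, comparisons that share no library. For Hk3 it was 1.24 ± 0.10 and 1.07 ± 0.10, for Pfkp 0.53 ± 0.12 and 0.66 ± 0.12, and for Fbp1 4.89 ± 0.34 and 4.84 ± 0.34, all higher in KO. For Pfkfb3 it was -1.80 ± 0.19 and -1.51 ± 0.19, and for Slc16a3 -0.738 ± 0.19 and -0.998 ± 0.19, lower in KO (adjusted p from 1.1e-09 to 0.00462, limma). The background was 19.5% of all genes higher and 15.4% lower against IgG, and 20.5% and 17.2% on top of anti-PD-1. Without the 3 libraries that stand apart 8 of the 10 were called in each, 4 higher and 4 lower in KO, beside 34.2% and 28.7% of all genes against IgG and 30.4% and 26.5% on top of anti-PD-1. The 5 genes named here kept their call under every alternative tried.

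Under IgG 4 of the 10 genes were higher in KO than in WT (19.1% of all genes) and 0 were lower (20% of all genes were). These were Slc2a1, Fbp1, Slc16a3 (0.40 ± 0.13, adjusted p = 0.0218, limma) and Ldha (0.29 ± 0.10, adjusted p = 0.0194, limma). The calls of Ldha and Slc16a3 were both lost without WT IgG replicate 2, KO IgG replicate 1 or KO IgG replicate 2, which left 2 called genes, and that of Slc16a3 also without WT IgG replicate 1. With array weights, with only the libraries compared, or without the 3 libraries that stand apart, 5 were higher in KO, Aldoa being the added gene, and 2 were lower, Pfkp and Pfkfb3. Without the 3 the latter stood at -0.21 and -0.29 (adjusted p = 0.00013 and 0.000517, limma), beside 32.8% of all genes higher and 31.1% lower. Under LGG, 4 were higher in KO (Slc2a1, Hk3, Pfkp and Fbp1, against 28.2% of all genes) and 2 lower (27% of all genes). Pfkfb3 stood lower in KO, at -2.09 ± 0.14 on the log2 scale (adjusted p = 9.49e-11, limma). Slc16a3 stood at -0.33 ± 0.13 with overlapping libraries (adjusted p = 0.0419, limma). The Slc16a3 call was lost without any 1 of WT LGG replicates 1 to 3 or KO LGG replicates 1 and 3. It was also lost with the replicate block and when only the libraries compared entered the fit. Leaving out the 3 libraries that stand apart gave 5 higher, Hk2 being the added gene, and 3 lower, Pgk1 being the added gene, beside 36.4% and 34.9% of all genes.

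Anti-PD-1 alone was followed by no called change among the 10 when all 24 libraries entered limma with equal weight, but in KO the count turned on single libraries. In WT against IgG, 0 of 10 were called by limma, edgeR or DESeq2. In limma 0.0314% of all genes were called and 1028 had an unadjusted p under 0.05. The fit to the compared libraries alone called 1 of the 10, Fbp1, beside 1774 of 12455 genes. Array weights called 1, Slc2a1, beside 3056 of 12749 genes. Without the 3 KO libraries that stand apart the WT count was 0, beside 4.39% of all genes higher and 4.13% lower. In KO against IgG, 0 of 10 were called by limma and edgeR (in limma 1.09% of all genes higher and 0.706% lower, 1992 with an unadjusted p under 0.05). DESeq2 called 2 of 10, beside 602 of 12749 genes. Without KO anti-PD-1 replicate 1 the KO count was 1, beside 745 of 12745 genes called. Without replicate 2 the KO count was 5, beside 4582 of 12739 genes called. It was 3 without the 3 libraries that stand apart, with Slc16a3 (0.39) and Aldoa (0.57) higher and Pfkfb3 lower (-0.35, adjusted p = 0.00958, 0.0092 and 0.0221, limma), where 4.74% of all genes rose and 4.23% fell. On top of LGG in WT, 0 of 10 were called by limma and edgeR and 1 by DESeq2 (0.0392% of all genes higher and 0.0235% lower, 827 with an unadjusted p under 0.05), and 3 were called without the 3 libraries that stand apart (3.86% of all genes higher and 4.7% lower). On top of LGG in KO, Slc2a1 alone was called, with 8774, 8976 and 8643 normalised counts against 7541, 7347 and 7604 (0.23 ± 0.05, adjusted p = 0.0475, limma). There 0.0941% of all genes rose and 0.18% fell. That call was lost when any 1 of the 6 libraries was left out. It was also lost with edgeR, TMM scaling, the replicate block and the fit to the compared libraries alone. Slc2a1 was called without the 3 libraries that stand apart, together with Ldha and Slc16a3 (4.81% of all genes higher and 6.5% lower). For Pfkfb3 with anti-PD-1 alone in WT the 95% interval of the log2 difference ran from -0.21 to 0.36, and for Fbp1 from -0.20 to 0.81.

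The other enzymes of glycolysis did not move as 1 block. Of 16 listed in WT, 3 rose and 4 fell with LGG, with a median log2 difference of -0.03, beside 27.4% and 28.2% of all genes. The risers were Eno2 (2.42 ± 0.16, adjusted p = 7.7e-11), Tpi1 (0.97 ± 0.14, adjusted p = 4.6e-06) and Eno3 (1.02 ± 0.23, adjusted p = 0.00099), 2 enolases and triosephosphate isomerase (limma). Adpgk, an ADP-using glucokinase (-1.42 ± 0.08, adjusted p = 5.4e-12), and Aldoc (-1.54 ± 0.11, adjusted p = 5.1e-10) fell (limma). Gapdh (0.13 ± 0.10), Pkm (0.01 ± 0.11), Eno1 (-0.15 ± 0.11) and Gpi1 (-0.20 ± 0.21) were not called. In KO, 5 of 16 rose and 1 fell beside 18.1% and 14.2% of all genes (9 and 3 without the 3 libraries that stand apart, where 32.1% and 29.4% of all genes were called), among them Pfkl (0.54 ± 0.10, adjusted p = 0.00024) and Pkm (0.48 ± 0.11, adjusted p = 0.0019, limma). Glycogen genes were mixed, with 6 of 12 higher and 4 lower in WT (27.4% and 28.2% of all genes), including Gyg (1.07 ± 0.12) and Gys1 (0.65 ± 0.10), which make glycogen, and Pygl (-0.94 ± 0.06), which breaks it down (adjusted p = 3.2e-07, 8.9e-06 and 2.7e-11, limma).

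In a list of 22 genes known as targets or parts of the HIF pathway, 16 rose with LGG in WT and 0 fell. The shares of all genes were 27.4% and 28.2%. The median log2 difference of the 22 was 0.55, beside 0.00 over all genes. Pfkfb4 and Aldoc, given above, and Pdk1, given below, fell in WT but were placed in other lists. The 0 lower therefore holds for this list and this comparison only. On top of anti-PD-1, 13 of the 22 rose with LGG in WT and 1 fell, beside 27.7% and 29.1% of all genes. In KO 13 rose and 3 fell on top of anti-PD-1, beside 19.7% and 17%. Against IgG without the 3 libraries that stand apart, 18 of the 22 rose in WT and 1 fell, beside 36.8% and 36.7% of all genes. The values that follow are against IgG. Egln3, an oxygen-sensing hydroxylase, went from 372 to 2475 normalised counts (means of 3 libraries). Ndrg1 went from 442 ± 11.5 to 2990 ± 128, and Bnip3, a mitophagy receptor, from 397 ± 36.5 to 1609 ± 96.5 (SD, n = 3). The libraries of these groups thus differed by several fold, with log2 differences of 2.73 ± 0.13 for Egln3, 2.75 ± 0.16 for Ndrg1 and 2.02 ± 0.13 for Bnip3 (adjusted p = 8.9e-13, 1e-11 and 6.6e-11, limma). Hif1a itself rose by 0.60 ± 0.08 (adjusted p = 9.7e-07, limma), while Vegfa was not called (0.03 ± 0.21). In KO, 11 of 22 rose and Epas1 fell (-0.58 ± 0.13, adjusted p = 0.0017, limma), with Egln3 at 1.75 ± 0.13, Ndrg1 not called at 0.29 ± 0.16 and Hif1a not called at -0.16 ± 0.08, beside 18.1% of all genes higher and 14.2% lower. Once the 3 libraries that stand apart were left out, 15 rose, Ndrg1 among them (0.33, adjusted p = 0.000724, limma), and 2 fell, beside 32.1% and 29.4%. Of the 22, 9 had a response lower in KO than in WT and 0 a higher one, beside 15.4% and 19.5% of all genes. Without the 3 these were 13 and 3, beside 28.7% and 34.2%.

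Downstream of pyruvate the counts ran the other way. Of 10 listed genes for entry of pyruvate into the mitochondrial cycle, 7 fell in WT and 0 rose (28.2% and 27.4% of all genes), among them Dlat (-0.85 ± 0.08, adjusted p = 8.9e-09) and Pdha1 (-0.93 ± 0.27, adjusted p = 0.0057, limma), subunits of pyruvate dehydrogenase. Pdk1, a kinase that inhibits pyruvate dehydrogenase, fell as well (-0.91 ± 0.16, adjusted p = 5.7e-05, limma), and so did the opposing phosphatase gene Pdp1 (-1.62 ± 0.12, adjusted p = 5.3e-10, limma). Of 20 genes listed for the tricarboxylic acid (TCA) cycle, 16 fell and 1 rose in WT, beside the same shares of all genes. The list also holds Idh1, a cytosolic form of isocitrate dehydrogenase, and Acod1, which are not enzymes of the cycle itself. Idh2 went from 2476 ± 86.0 to 369 ± 18.6 normalised counts and Idh1 from 6496 ± 116 to 1389 ± 64.3 (SD, n = 3), with log2 differences of -2.74 ± 0.10 and -2.23 ± 0.09 (adjusted p = 5.4e-15 and 2.9e-14, limma). The riser was Acod1, the enzyme that diverts aconitate to itaconate, at 2.10 ± 0.07 in WT and 3.65 ± 0.07 in KO (adjusted p = 2.5e-15 and 3.3e-18, limma). In KO 9 of the 20 fell and 2 rose (14.2% and 18.1% of all genes), or 16 and 3 without the 3 libraries that stand apart (29.4% and 32.1%), with Idh1 at -0.84 ± 0.09 and Idh2 at -0.63 ± 0.10 (adjusted p = 2.7e-07 and 3.5e-05, limma).

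**Figure D5:**
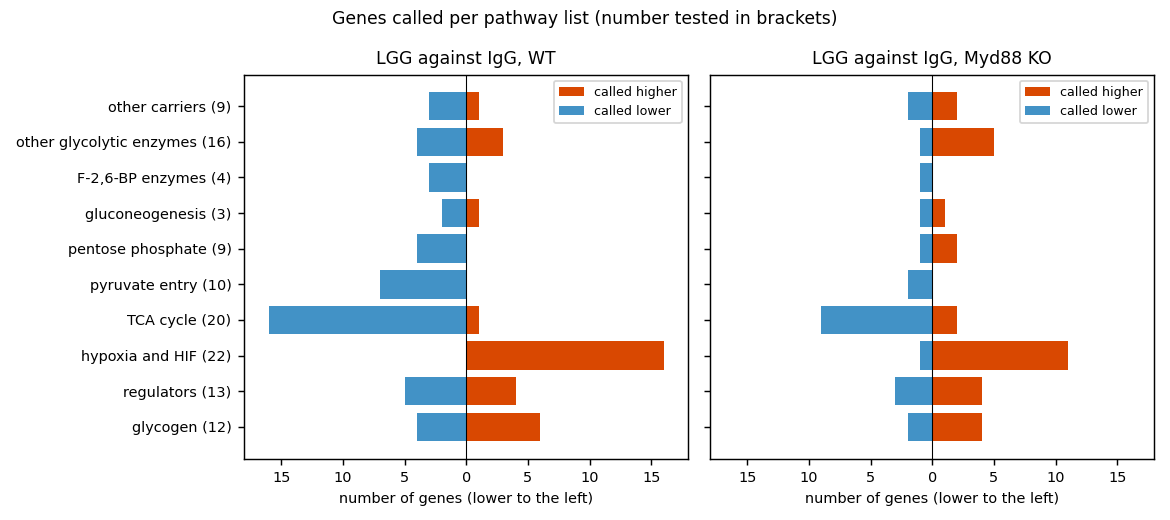
Number of genes called higher (right) or lower (left) with LGG against IgG in 10 lists that exclude the 10 members, in WT and KO, with the number tested in brackets. In WT the HIF list had 16 higher and 0 lower, and the TCA list 1 higher and 16 lower.

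Of the genes that share the gluconeogenic direction with Fbp1, 3 of 6 were listed. Pcx, which makes oxaloacetate from pyruvate, rose by 0.48 ± 0.13 in WT and by 2.00 ± 0.13 in KO (adjusted p = 0.0038 and 5.8e-10, limma), going in KO from 266 ± 18.7 to 1067 ± 104 normalised counts (SD, n = 3). Pck2, the mitochondrial carboxykinase, fell in both (-0.52 ± 0.13 and -0.42 ± 0.13, adjusted p = 0.0019 and 0.016, limma), and G6pc3 fell in WT (-0.79 ± 0.23, adjusted p = 0.0064, limma) and was not called in KO (-0.03 ± 0.23), though it was without the 3 libraries that stand apart (-0.25, adjusted p = 0.0384, limma). In the pentose phosphate pathway 4 of 9 fell in WT, led by Tkt (14282 ± 855 to 7122 ± 490 normalised counts, SD, n = 3, adjusted p = 1.2e-08, limma), and 0 rose, beside 28.2% and 27.4% of all genes. In KO 2 rose there (18.1% of all genes), Pgd (0.67 ± 0.10) and G6pdx (0.38 ± 0.08), and 1 fell (14.2%), Rpia (-0.55 ± 0.19, adjusted p = 2.2e-05, 0.00093 and 0.031, limma). Without the 3 libraries that stand apart 3 rose and 3 fell there (32.1% and 29.4%). Of 13 regulators, 4 rose and 5 fell in WT, beside 27.4% and 28.2% of all genes. Myc, a transcription factor that drives glycolytic genes in many cells, fell in both genotypes (-1.25 ± 0.09 and -1.20 ± 0.09, adjusted p = 4e-10 and 4.2e-09, limma), and so did Txnip, which restrains glucose uptake (-0.53 ± 0.07 and -0.80 ± 0.07, adjusted p = 1.1e-06 and 1.5e-08, limma). Tbk1 rose in both (0.47 ± 0.13 and 0.66 ± 0.13, adjusted p = 0.0059 and 0.00072, limma).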

How the data were processed

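The data are RNA-seq signal values of 24 libraries, deposited as 1 table of normalised counts for 12767 genes. Per the submitters' processing notes the tools were STAR 2.4.0, HTSeq 0.6.1 and DESeq2 with the build mm10; parameters, strand setting and filters are not given in the sources used here. Each deposited signal value divided by its library's step gave a whole read (100% within 0.001), so reads could be recovered, and recovered reads per library ranged from 24531528 to 49272593. The 10 genes and the pathway and marker lists were chosen with earlier results of these data known, so their counts are descriptions.

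Tests used limma 3.58.1 (R 4.3.3; trend and robust) on log2(value + 1) of 12749 genes with a mean of at least 10, with 8 group means over all 24 libraries, which share 1 estimate of the spread. P-values were adjusted by Benjamini-Hochberg over all genes within each of 12 comparisons and called under 0.05. Fold changes on this scale understate the change of low genes. Errors after ± are standard errors for log2 differences and SDs for levels and shares. Levels per kilobase divide by the length of the principal transcript in GENCODE M21, and shares of gene families use them. Counting intervals (95%, exact) cover counting error only. From each pathway list the text names up to 4 genes with the smallest p in each genotype and genes with a group mean of at least 1000. The 3 most alike genes per member pass over predicted genes. The alternatives changed 1 choice each: a pseudocount of 8, no filter, TMM factors, limma's array weights, a fit to the compared libraries alone, the replicate number as a block, DESeq2 1.42.0 or edgeR 4.0.16 on recovered reads, and libraries left out (each in turn, or the 3 that stand apart; for the pathway lists and gene family shares this was added after the data were seen). Promoter windows came from RefSeq (GRCm38.p6); proteins were not analysed here. No strand setting is known, so reads of annotated genes that overlap Slc2a1, Hk2, Hk3, Pfkp, Pfkfb3 or Aldoa cannot be told from their own.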

Additional observations from a re-analysis of the deposited data

Results flagged for a closer look

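For 5 genes the response to LGG differed between the genotypes by a test of the difference itself (KO minus WT of the log2 differences, limma, 3 libraries in each of 4 groups). Against IgG the values were 1.24 for Hk3, 0.53 for Pfkp and 4.89 for Fbp1, with -1.80 for Pfkfb3 and -0.74 for Slc16a3. On top of anti-PD-1, in other libraries, they were 1.07 for Hk3, 0.66 for Pfkp and 4.84 for Fbp1, with -1.51 for Pfkfb3 and -0.998 for Slc16a3. Hk3 and Pfkp changed sign between the genotypes, while Fbp1, Pfkfb3 and Slc16a3 had differences of the same sign in both, of different size (Pfkfb3 against IgG in KO was not called). The KO libraries also carried a Y-linked transcript and lower T cell and natural killer cell markers (T cell sum 1519 to 1597 in KO IgG and 13218 to 14111 in WT IgG), and their part in these differences was not tested.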

How the results depend on the processing

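Of 1919 values of single genes under alternatives, 1763 kept their direction and side of the threshold, 56 lost and 100 gained a call, and 0 reversed; 42 uncalled values changed sign. The number of called genes among the 10 moved as follows; the cause was not tested. Array weights gave 9 for LGG in KO (5 as reported), 8 and 9 for the differences between genotypes (5 each), 7 for KO against WT under IgG (4), and for anti-PD-1 1 in WT, 5 in KO, 7 on LGG in WT and 5 on LGG in KO (0, 0, 0 and 1). Over all 12749 genes array weights called 9068 for LGG in KO (4108 with equal weight) and 8949 and 8614 for the differences between genotypes (4449 and 4804). For KO against WT under IgG they called 8769 genes (4977). For anti-PD-1 they called 3056 in WT, 3053 in KO, 4680 on LGG in WT and 3656 on LGG in KO (4, 229, 8 and 35). The calls that array weights gained for KO against WT under IgG included 2 lower ones. Leaving out the 3 libraries that stand apart gave 9 for LGG in KO and 8 for the difference between genotypes against IgG. It gave 7 for KO against WT under IgG, and 3 each for anti-PD-1 on LGG in WT and on LGG in KO. Comparisons with KO anti-PD-1 then rest on replicate 1 of that group, and their counts are not given. Fitting only the libraries compared gave 2 for LGG on anti-PD-1 in KO (9), 1 for anti-PD-1 in WT, 0 for anti-PD-1 on LGG in KO and 7 for KO against WT under IgG; it gave no value for Fbp1 with anti-PD-1 on LGG in WT, where its mean was under the filter. Over all genes this fit called 1258 of 12363 for LGG on anti-PD-1 in KO and 1774 of 12455 for anti-PD-1 in WT. It called 0 of 12385 for anti-PD-1 on LGG in KO and 7804 of 12408 for KO against WT under IgG. DESeq2 gave 8 for LGG in KO, 2 for anti-PD-1 in KO and 1 on LGG in WT. Over all 12749 genes it called 4628, 602 and 81. The Slc2a1 call for anti-PD-1 on LGG in KO was 0 with TMM scaling and edgeR.

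Same-numbered libraries did not deviate together in a regular way (correlations from -0.832 to 0.56, with 0 of 28 pairs of groups above 0.1 throughout). With 3 libraries per group this cannot exclude that the numbers pair samples. The replicate block gave 0 called genes for anti-PD-1 on LGG in KO and 5 for KO against WT under LGG (6 as reported). For LGG on anti-PD-1 it gave 7 in WT and 8 in KO (8 and 9 as reported). With each library left out in turn, counts ran from 0 to 5 for anti-PD-1 in KO (1 without KO anti-PD-1 replicate 1, 5 without replicate 2), were 0 throughout for anti-PD-1 on LGG in KO, ran from 5 to 9 for the difference between genotypes on anti-PD-1 (9 without KO anti-PD-1 replicate 2) and from 2 to 4 for KO against WT under IgG. Over all genes, anti-PD-1 in KO had 745 of 12745 called without KO anti-PD-1 replicate 1 and 4582 of 12739 without replicate 2. The difference between genotypes on anti-PD-1 had 7264 of 12739 called without KO anti-PD-1 replicate 2. Where an arm kept 2 libraries, its spread was taken from all groups. The same holds for KO anti-PD-1 without the 3 libraries that stand apart, where only replicate 1 was left. Depth limits Fbp1 in WT with LGG, where 9 and 16 reads underlie the 2 groups.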
